A study of Arabidopsis thaliana with 32 samples.

Results

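In roots of Arabidopsis thaliana, 187 loci were higher at 8 days than at 4 days in both genotypes and in both places of growth. They were chosen on the measured values: a locus had to be listed in all 4 of the authors' tables that compare 8 days with 4 days, with an 8-day value at least 1.5 times the 4-day value in each. The rule also left out 14 genes by name, 7 of which would have qualified. The 187 members are part of 4802 loci listed in any of the authors' 12 tables and of 442 loci listed in all 4 age tables. Of these 442 loci, 268 were higher at 8 days in every table, 166 were lower in every table and 8 changed direction between tables. With the same minimum fold, 94 loci were lower at 8 days everywhere.

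Seedlings were grown on solid medium on the International Space Station or, 48 h later, in a chamber on the ground that repeated the temperature, CO2 and light of the station. The 8 groups were flight Sku6, flight Col-0, ground Sku6 and ground Col-0, each at 8 days and at 4 days, with 4 samples a group and 32 samples in all. Col-0 is the wild type, and Sku6 carries the sku6 allele of SPIRAL1 (SPR1), a gene for a microtubule-associated protein whose loss makes roots skew. A sample was a pool of whole roots dissected from preserved, light-grown seedlings, with 2 to 3 roots at 8 days and 5 to 8 roots at 4 days. Age therefore goes together with the number of roots pooled, and the place of growth with the 48 h delay, and these cannot be told apart. SPR1 stood in Sku6 at 0.571% to 0.912% of its level in Col-0 over the 4 genotype tables, which fits the genotype labels.

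Every value below is 1 FPKM (a fragment count divided by transcript length and by the mapped total) for a whole group, as the authors deposited it. No value per sample, no spread between samples and no depth was in hand, so no error stands beside a level or a fold. Each table lists only loci with an authors' q-value of at most 0.05; a locus outside a table is called not listed, which does not show that it did not change. Fewer cells of a type and less RNA per cell cannot be told apart in whole roots. Of 9 seed storage genes none was listed in an age table. Of 12 genes of green shoot tissue none was listed as higher at 8 days, and 7, 7, 8 and 4 were listed as lower in flight Sku6, flight Col-0, ground Sku6 and ground Col-0.

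As an Arabidopsis root ages, a larger part of it lies behind the growing tip, in the zone where cells have matured. There the endodermis deposits suberin, the phloem is in use, and the vascular cambium, a ring of dividing cells kept active by TDIF peptides, their receptor PXY and the homeobox gene WOX4, begins to thicken the root. Plant age is also read by microRNAs: miR156 declines as a plant grows older, and the SPL transcription factors whose messengers it cuts increase. MicroRNAs of the miR319 and miR169 families act in the same manner on messengers of TCP and NF-YA transcription factors.

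Of the members, 6 belong to these microRNA-targeted families, and the sites are shown because all 6 carry one. Sequences and positions are from the RefSeq TAIR10.1 assembly and annotation, read 5′ to 3′. In the microRNAs the capitals mark the seed, bases 2 to 8. In the target sites they mark bases that do not form a Watson-Crick pair with the microRNA, and a site without capitals pairs along its whole length.
miR156j: uGACAGAAgagagagagcac
SPL2 site: gtgctctctctcttctgtca
miR319c: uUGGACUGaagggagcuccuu
TCP2 site: CaggGgGAcccttcagtccaa
TCP3 site: GaggGgTCcccttcagtccaT
TCP24 site: TaggGgGAcccttcagtccaa
miR169h to miR169n: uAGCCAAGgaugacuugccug
NF-YA8 site: AaggGaagtcatccttggctG
NF-YA10 site: caggcaaAtcatcTttggctC
The SPL2 site lies in the coding sequence at chr5:17360758-17360777 on the minus strand. The TCP sites are coding and on the minus strand, at chr4:10163402-10163422 for TCP2, chr1:19850522-19850542 for TCP3 and chr1:10628989-10629009 for TCP24. The NF-YA sites are in the 3′ UTR, at chr1:6050422-6050442 on the minus strand for NF-YA8 and chr5:1986749-1986769 on the plus strand for NF-YA10. A letter match is a description of the sequence and does not show that a messenger is cut in these roots.

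SPL2, a squamosa promoter binding protein-like factor, was at 10.4 and 5.78 FPKM at 8 and 4 days in flight Sku6, 14.9 and 6.28 FPKM in flight Col-0, 9.80 and 5.59 FPKM in ground Sku6, and 11.1 and 4.05 FPKM in ground Col-0. The 4 values at 8 days all lay above the 4 values at 4 days, which is a description, since the rule used the same values. TCP2, a class II TCP factor known from leaf growth, was at 11.0 and 1.25 FPKM at 8 and 4 days in flight Sku6, 13.8 and 2.42 FPKM in flight Col-0, 11.7 and 1.20 FPKM in ground Sku6, and 12.4 and 1.65 FPKM in ground Col-0. Its folds of 8.80, 5.71, 9.73 and 7.52, in the same order of groups, were the largest of the 3 TCP members. TCP3 had folds of 3.34, 3.44, 3.40 and 2.58, and TCP24 of 2.56, 2.61, 4.54 and 4.54. NF-YA8 and NF-YA10, DNA-binding subunits of the trimeric factor NF-Y, had folds of 2.04, 2.24, 2.44 and 2.24 for NF-YA8, and 1.92, 2.65, 1.82 and 2.14 for NF-YA10.

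With the 6 members included, the annotation names 41 genes by an SPL, TCP or NF-YA symbol. Genes of these families that it gives under another symbol were not counted. Of these, 23 carry a site for the matching microRNA. Of these 23, 11 were listed as higher at 8 days in at least 1 age table and 0 as lower. The 11 include the 6 members, which the rule fixed as higher, so the count is a description. Of the 18 family genes without a site, 1 was listed as higher and 2 as lower. The share of all loci listed as higher in at least 1 age table was not counted. Nothing about the effect of a site is therefore read from these counts, and microRNA control was not tested. SPL9, the SPL factor best known from the juvenile-to-adult change, was at 2.10 and 0.450 FPKM at 8 and 4 days in flight Sku6 and at 2.18 and 0.364 FPKM in flight Col-0, and it was not listed on the ground. SPL15 was listed in flight Col-0 (5.95 FPKM at 8 days and 0.552 FPKM at 4 days), and SPL11 in ground Col-0 (10.7 FPKM at 8 days and 4.11 FPKM at 4 days). NF-YA3 was listed in all 4 tables with folds of 1.52, 1.49, 1.87 and 1.46, and missed the rule through the values in flight Col-0 and ground Col-0. These families were looked at after TCP2 and SPL2 had been seen among the members.

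**Figure D1:**
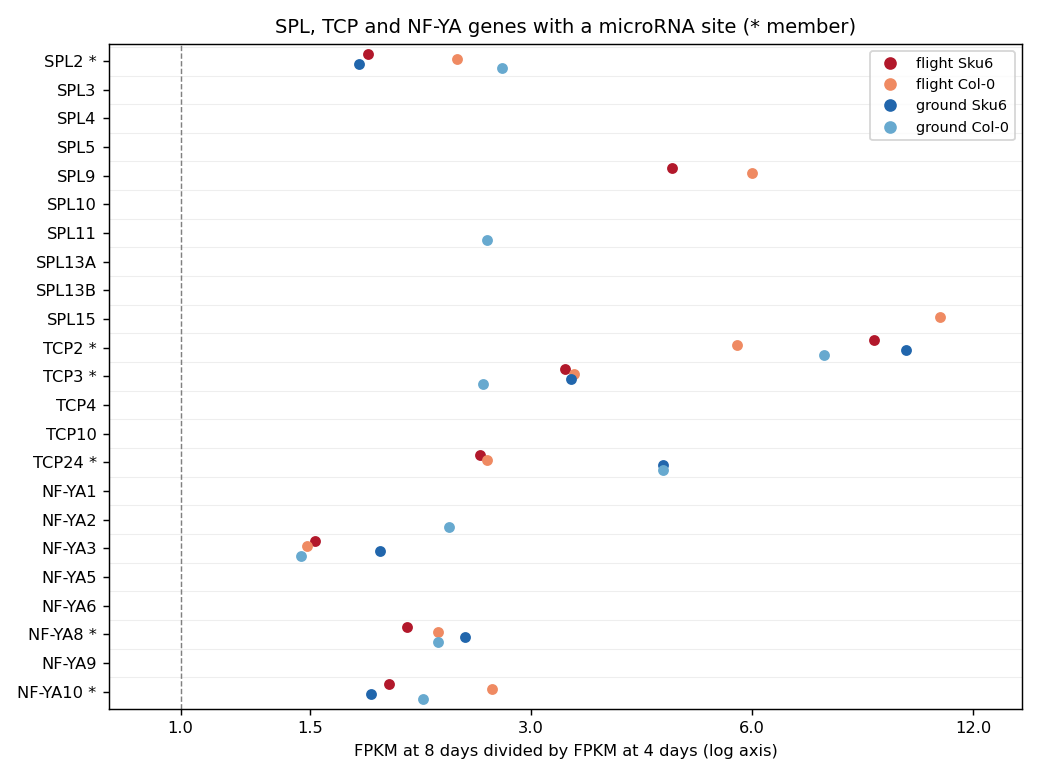
Fold of 8 days over 4 days (log axis) for the 23 SPL, TCP and NF-YA genes with a site for miR156, miR319 or miR169. A point stands for each age table that lists the gene, coloured by group, with no point where a table does not list it and a star on the 6 members. Every point lies right of the dashed line at 1, which the rule fixes for the 6 members. SPL15 in flight Col-0 is the farthest, at 10.8.

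Sites for microRNAs were not frequent among the members as a whole. Against all 350 mature microRNA sequences of the annotation, at a penalty of at most 2.5 (1 for a mismatch and 0.5 for a G:U pair), 13 of 186 protein-coding members had a site. That is 6.99%, beside 7.09% of 27444 annotated protein-coding genes. Taken by family at a penalty of at most 4, miR319 sites were in 2.15% of members and 0.197% of all genes, miR169 sites in 1.08% and 0.455%, and miR156 sites in 5.91% and 3.29%. The miR319 count rests on 4 genes, 3 of them the TCP members, and the miR169 count on 2, both NF-YA members. Of the 11 member genes with a miR156 site, SPL2 was the only SPL gene. The precursor of miR157a, a close relative of miR156, was listed as lower at 8 days in 3 age tables: 1.65 and 15.2 FPKM at 8 and 4 days in flight Col-0, 0.614 and 5.05 FPKM in ground Sku6, and 0.534 and 5.71 FPKM in ground Col-0. The MIR156c precursor was listed as lower in flight Sku6 alone, with 0.411 FPKM at 8 days and 4.16 FPKM at 4 days. Short precursors are poorly measured by a library of whole transcripts, so these levels are rough.

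The rule fixes that all members are higher at 8 days, so their number and their folds are a description. Loci higher at 8 days by at least 1.5 times made up 3.28% of all loci tested in flight Sku6, 2.41% in flight Col-0, 3.96% in ground Sku6 and 3.88% in ground Col-0, and nothing is read from the members' count beside these. The members' median fold was 2.76 in flight Sku6, 2.37 in flight Col-0, 2.99 in ground Sku6 and 2.46 in ground Col-0. The lowest of a member's 4 folds was between 1.5 and 2 for 88 members, between 2 and 3 for 60, between 3 and 5 for 22, between 5 and 10 for 14, and at least 10 for 3. Just inside the threshold stood CYP71B37 with a lowest fold of 1.501, HB-12 with 1.512, ENODL2 with 1.520 and AT2G28510 with 1.530. Just outside stood AT5G05180 with 1.496, RLK4 with 1.495, XIP1 with 1.479 and IGMT5 with 1.477. The members ranged widely in level: the geometric mean of the 8-day values had a median of 23.2 FPKM and ran from 1.64 to 1658 FPKM, with 33 members at 100 FPKM or more and 40 under 10 FPKM. No 4-day value was 0, but 14 members had a 4-day value under 1 FPKM, where a fold rests on few fragments.

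DIR1 (AT5G48485; TAIR10 chromosome 5, 19646232 to 19646802), a lipid-transfer protein needed for long-distance signalling in systemic acquired resistance, had the largest folds. It was at 93.1 and 1.91 FPKM at 8 and 4 days in flight Sku6, 93.9 and 1.91 FPKM in flight Col-0, 89.0 and 1.60 FPKM in ground Sku6, and 175 and 2.89 FPKM in ground Col-0. The folds of 48.7, 49.2, 55.7 and 60.6 lay close together, while ground Col-0 had the highest level at both ages. DIR1 was the only member on a list of 14 genes of salicylate and systemic resistance. With DIR1 included, 1, 1, 3 and 2 genes of that list were listed as higher at 8 days, in the same order of groups. As lower, 3, 1, 3 and 1 were listed. BGLU7 (AT3G62740; TAIR10 chromosome 3, 23211293 to 23214022), a beta-glucosidase, was at 18.6 and 0.699 FPKM at 8 and 4 days in flight Sku6, 20.5 and 0.802 FPKM in flight Col-0, 41.2 and 2.03 FPKM in ground Sku6, and 29.8 and 2.46 FPKM in ground Col-0. Its folds were 26.6, 25.5, 20.3 and 12.1, and both ages were lower in flight than on the ground. AT1G52820, annotated as an oxygenase that uses 2-oxoglutarate and iron, had folds of 11.7, 14.9, 12.2 and 19.4 with 57.8 to 83.8 FPKM at 8 days and 4.18 to 4.97 FPKM at 4 days. It was in no flight or genotype table.

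Letter motifs were counted in windows from 250 bases before to 50 bases after the annotated start of each gene, on both strands, in TAIR10.1. The W-box core TTGAC was in 48.9% of 186 member promoters and 50.5% of 27443 promoters of all genes. The site II element TGGGCC was in 8.06% of member promoters and 15.5% of all, and the TATA box TATAAA in 54.3% and 52.1%. The auxin response core TGTCTC was in 19.4% of member promoters and 14.2% of all, and the G-box CACGTG in 10.2% and 7.68%. In 93 promoters of the loci lower at 8 days everywhere, the shares in the same order of motifs were 65.6%, 7.53%, 58.1%, 15.1% and 6.45%. The low share of the site II element was thus not particular to the members.

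Among the other leading members, AT5G44400, annotated as a FAD-binding berberine family protein, had folds of 20.7 in flight Sku6, 9.27 in flight Col-0, 55.0 in ground Sku6 and 13.2 in ground Col-0. Its folds spread the most of all members, by a factor of 5.93, and the median member's folds spread by 1.62. The spread came with low 4-day values, 1.76, 3.19, 1.25 and 3.65 FPKM in the same order. AT1G77520, an O-methyltransferase family gene, had folds of 9.77, 7.97, 24.1 and 14.3, and the adjacent O-methyltransferase gene AT1G77530 had 4.73, 6.15, 9.61 and 4.96. GASA6, a gibberellin-regulated small peptide, was at 44.3 and 3.85 FPKM at 8 and 4 days in flight Sku6, 23.4 and 3.30 FPKM in flight Col-0, 58.9 and 5.35 FPKM in ground Sku6, and 35.4 and 2.77 FPKM in ground Col-0. AT5G53820, a late embryogenesis abundant family gene, CYP71A19, a cytochrome P450, and AT2G01610, a pectin methylesterase inhibitor family gene, had lowest folds of 5.71, 5.71 and 5.32. At the other end, the folds of AT1G35250, a thioesterase family gene, ran only from 2.44 to 2.54.

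**Figure D2:**
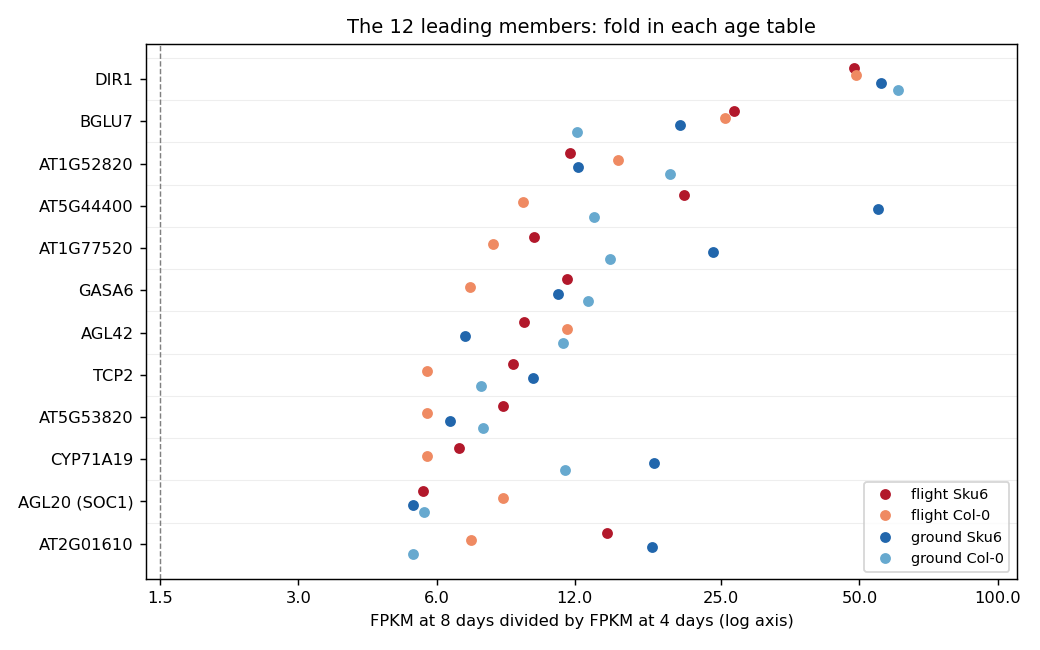
Fold of 8 days over 4 days (log axis) for the 12 single-gene members with the largest lowest fold among those with at least 5 FPKM in every 8-day group. Each point is 1 age table, coloured by group, and the dashed line is the fold of the rule, 1.5. DIR1 stands apart with all 4 points between 48.7 and 60.6, and AT5G44400 has the widest spread.

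The most abundant members were higher at 8 days by smaller folds. AT4G23670, a polyketide cyclase family protein of the major latex protein type, was at 1699 and 879 FPKM at 8 and 4 days in flight Sku6, 1525 and 746 FPKM in flight Col-0, 1821 and 460 FPKM in ground Sku6, and 1602 and 540 FPKM in ground Col-0. Its levels at 8 days were alike in the 4 groups, and its 4-day levels were higher in flight than on the ground. GRP9, a glycine-rich protein, was at 1375 to 1847 FPKM at 8 days and 666 to 966 FPKM at 4 days, and DR4, named drought-repressed 4, at 1396 to 1727 FPKM and 456 to 726 FPKM. MT3, a metallothionein that binds metal ions, was at 567 to 732 FPKM at 8 days and 253 to 320 FPKM at 4 days. Loci that merge AT2G01480 with MLP328 and AT1G19550 with the dehydroascorbate reductase DHAR1 completed the 6 most abundant, and the FPKM of a merged locus cannot be divided between its genes.

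Genes for transcription factors made up 34 of the 186 protein-coding member genes, 18.3%, beside 1545 of 27444 annotated genes, 5.63%, by the same wording of the annotation. The wording was chosen after the members had been seen, so the shares are a description. Among annotation families, homeobox genes had 5 members of 82 annotated genes (6.10%), while members were 0.678% of all protein-coding genes. Some other families of factors had smaller shares: 2.22% for bHLH, 1.67% for MYB or MYB-like, 1.39% for WRKY, 0.575% for zinc finger and 0% for NAC genes. The smaller families described above had larger shares than homeobox genes. Taken by gene symbol, 3 of 16 TCP, 2 of 10 NF-YA and 1 of 15 SPL genes were members. AGL42, a MADS-box gene known from the quiescent centre of the root tip and from flowering, was at 67.9 and 7.32 FPKM at 8 and 4 days in flight Sku6, 57.5 and 5.00 FPKM in flight Col-0, 75.0 and 10.8 FPKM in ground Sku6, and 57.2 and 5.05 FPKM in ground Col-0. AGL20, the flowering gene also called SOC1 and a relative of AGL42, was at 18.0 to 22.5 FPKM at 8 days and 2.34 to 4.22 FPKM at 4 days. For both genes each 8-day value, as used by the rule, lay above each 4-day value, and neither gene was in a flight or genotype table. MYB34, a regulator of indole glucosinolate synthesis, was the most abundant factor, at 148 to 191 FPKM at 8 days and 70.7 to 97.0 FPKM at 4 days. AT2G28510, a Dof zinc finger gene, had the most even folds of the abundant factors, 1.58, 1.53, 1.55 and 1.70.

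Of the members, 7 belong to a list of 15 vascular cambium genes, which was written after values had been seen. WOX4 (AT1G46480; TAIR10 chromosome 1, 17236533 to 17238053), which keeps cambium cells dividing, was at 31.5 and 5.55 FPKM at 8 and 4 days in flight Sku6, 27.9 and 6.17 FPKM in flight Col-0, 41.1 and 6.26 FPKM in ground Sku6, and 43.1 and 10.0 FPKM in ground Col-0. All its 8-day levels were above 27 FPKM, and the ground groups stood above the flight groups at that age. PTL, a trihelix factor, was at 5.12 and 1.04 FPKM at 8 and 4 days in flight Sku6, 3.83 and 1.00 FPKM in flight Col-0, 7.90 and 0.706 FPKM in ground Sku6, and 7.10 and 1.65 FPKM in ground Col-0. Its fold of 11.2 in ground Sku6 rests on the lowest of these 4-day values. ASL9, also called LBD3, a cytokinin-responsive LOB domain factor, was at 24.3 and 5.03 FPKM at 8 and 4 days in flight Sku6, 24.6 and 8.98 FPKM in flight Col-0, 32.7 and 9.36 FPKM in ground Sku6, and 45.5 and 17.1 FPKM in ground Col-0.

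The other cambium members are ANT, an AP2-type factor of dividing organs, KNAT1, a knotted-like homeobox factor of meristems, OBP1, a Dof factor tied to the cell cycle, and CLE44, which encodes the TDIF peptide made in phloem. ANT had folds of 2.35 in flight Sku6, 2.74 in flight Col-0, 4.07 in ground Sku6 and 2.85 in ground Col-0. KNAT1 had 2.34, 2.33, 2.96 and 2.97, OBP1 had 3.39, 2.20, 3.06 and 2.46, and CLE44 had 1.82, 1.55, 1.68 and 1.78. CLE44 thus had the smallest folds of the 7. Over the whole list, 9, 8, 9 and 11 of the 15 genes were listed as higher at 8 days in flight Sku6, flight Col-0, ground Sku6 and ground Col-0, and 0 as lower in each. PXY, the receptor of the TDIF peptide, was higher in all 4 tables and missed the rule through its fold of 1.42 in ground Col-0, beside 1.96, 1.88 and 2.69 in flight Sku6, flight Col-0 and ground Sku6. CLE41, LBD11, CYCD3;1 and HB-8 were listed in none.

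**Figure D3:**
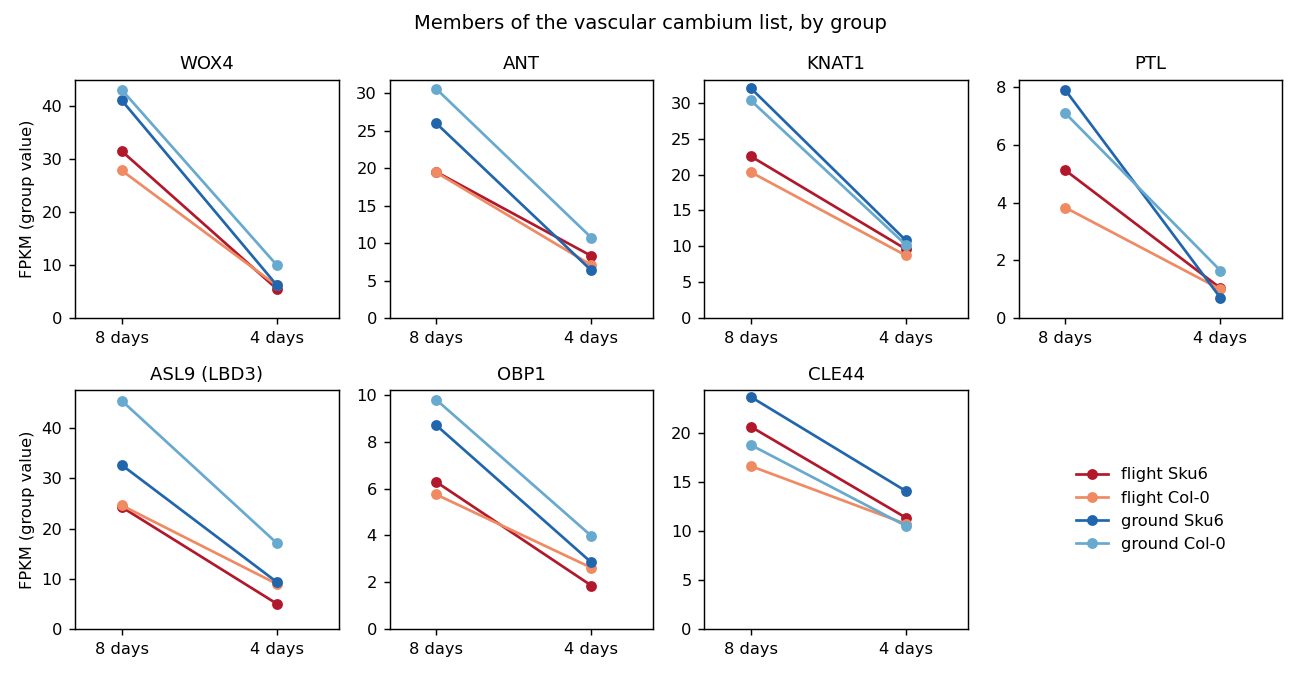
FPKM at 8 days (left) and 4 days (right) of the 7 members on the vascular cambium list, with 1 line for each genotype and place of growth and linear axes from 0. Every line is higher at 8 days; for WOX4, ANT, KNAT1, PTL, ASL9 and OBP1 the ground lines stand above the flight lines at 8 days.

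A pair of cytokinin genes, a cyclin and an inhibitor of cyclin-dependent kinases were also members. CKX7, an enzyme that breaks down cytokinin, had folds of 4.00, 2.32, 2.86 and 1.98 in flight Sku6, flight Col-0, ground Sku6 and ground Col-0, and ARR7, a response regulator induced by cytokinin, had 1.90, 2.18, 1.81 and 2.38. CYCD6;1, a D-type cyclin of formative divisions in the root, was at 11.1 to 24.5 FPKM at 8 days and 4.53 to 6.75 FPKM at 4 days. AT1G51355, the gene for the cyclin-dependent kinase inhibitor, was at 20.3 to 25.5 FPKM at 8 days and 6.33 to 7.91 FPKM at 4 days. Of a list of 11 genes of the root tip and cell cycle, 0 were members, 1 was listed as higher at 8 days, in ground Col-0, and 0 as lower. CKX7, ARR7, CYCD6;1 and AT1G51355 were picked out after their values had been seen.

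Phloem genes were the other vascular group. SEOa and SEOR1, adjacent genes on chromosome 3 for the filament proteins of sieve elements, had folds of 2.89, 2.42, 2.47 and 3.13 (SEOa) and 2.59, 2.88, 2.69 and 1.80 (SEOR1) in flight Sku6, flight Col-0, ground Sku6 and ground Col-0. PP2-A1, a phloem lectin, was at 54.0 to 71.2 FPKM at 8 days and 23.1 to 35.5 FPKM at 4 days. These are the 3 members of an 8-gene phloem list, on which 4 genes were listed as higher in each age table and 1 as lower in ground Col-0. The exception was SWEET11, a sucrose exporter, with a fold of 0.397 in ground Col-0 but 12.5 in flight Sku6 and 2.46 in ground Sku6. NRT1.7, a nitrate transporter of phloem loading, had folds of 3.28, 2.59, 6.91 and 2.57. Of a list of 17 genes of xylem and secondary wall, 0 were members, and 2, 1, 1 and 0 were listed as higher at 8 days in flight Sku6, flight Col-0, ground Sku6 and ground Col-0. LAC17, a laccase of lignin formation, was the 1 gene of that list that was lower, with a fold of 0.418 in ground Col-0. XYP1, a xylogen protein tied to xylem differentiation and not on that list, was a member with folds of 1.87, 1.68, 2.70 and 2.82 in the same order of groups.

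Suberin and wax genes formed a further group. FAR5, a reductase that makes the fatty alcohols of suberin, was at 42.6 and 13.8 FPKM at 8 and 4 days in flight Sku6, 31.4 and 17.5 FPKM in flight Col-0, 62.1 and 24.9 FPKM in ground Sku6, and 50.5 and 31.7 FPKM in ground Col-0. Its levels were lower in flight than on the ground at both ages. MYB93, a factor expressed in endodermis over young lateral roots, had folds of 2.97, 1.73, 3.24 and 1.60, and FACT, an acyltransferase that makes alkyl caffeates of root wax, had 4.32, 4.23, 4.96 and 3.02. GPAT6, an acyltransferase of cutin synthesis, had 2.23, 1.64, 2.22 and 1.59. Of 18 suberin genes, 9, 6, 10 and 5 were listed as higher at 8 days in flight Sku6, flight Col-0, ground Sku6 and ground Col-0, and 0, 0, 0 and 1 as lower. The list has 2 members. GPAT5, CYP86A1 and CYP86B1 were left out by name. GPAT5 would have qualified, with folds of 3.75, 2.29, 4.76 and 1.76, but CYP86A1 missed the minimum fold in ground Col-0, at 39.9 and 28.5 FPKM at 8 and 4 days, and CYP86B1 was not listed there. On the Casparian strip list, 1, 2, 1 and 0 of its 10 genes were listed as higher and 2, 1, 2 and 3 as lower.

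Several annotated families of glycosyl hydrolases and cell-wall enzymes had members and others had none. The glycosyl hydrolases, matched by name, include beta-glucosidases such as BGLU7 and are not limited to wall enzymes. Of 211 annotated glycosyl hydrolase genes 6 were members (2.84%), of 259 pectin-modifying genes 6 (2.32%) and of 34 expansin genes 2 (5.88%), while 0 of 35 xyloglucan transferase genes and 0 of 17 laccase genes were. The rule leaves out the xyloglucan transferase genes AT4G03210 and AT4G37800 by name, so neither could be counted for that family. GH9B13, an endoglucanase-type hydrolase, was at 195 and 43.6 FPKM at 8 and 4 days in flight Sku6, 203 and 49.9 FPKM in flight Col-0, 237 and 36.5 FPKM in ground Sku6, and 232 and 52.4 FPKM in ground Col-0. BGLU44 had folds of 3.82, 4.45, 10.0 and 6.31 and BGLU47 of 4.09, 3.33, 1.93 and 2.24. The genes for pectin lyase-like proteins AT3G27400 and AT3G62110 had lowest folds of 2.91 and 2.06, and EXPA6, an expansin that loosens walls, was at 83.2 to 110 FPKM at 8 days and 32.5 to 53.0 FPKM at 4 days. Over the pectin-modifying family, its 6 members included, 12 genes were listed as higher and 2 as lower at 8 days in flight Sku6, 13 and 3 in flight Col-0, 17 and 9 in ground Sku6, and 15 and 12 in ground Col-0.

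A group of 4 members belongs to a list of 8 low-oxygen genes, also written after values had been seen. PCO1 (AT5G15120), an oxidase that marks group VII ERF factors for destruction when oxygen is present, was at 22.4 and 9.94 FPKM at 8 and 4 days in flight Sku6, 15.8 and 6.53 FPKM in flight Col-0, 15.3 and 4.04 FPKM in ground Sku6, and 24.9 and 6.48 FPKM in ground Col-0. Its relative PCO2, in a locus that merges AT5G39890 with AT5G39895, had folds of 2.93, 1.82, 2.31 and 2.74. HRA1 (AT3G10040), a trihelix factor that restrains the low-oxygen response, had 2.70, 2.23, 1.97 and 2.40, and LBD41, a LOB domain factor of that response, had 1.99, 1.72, 2.72 and 3.06. SUS1 and SUS4, sucrose synthases of the list, were listed as higher in 2 tables and 1 table, and HRE1 and HRE2 in none. Lists of phosphate starvation (14 genes), nitrate and ammonium (13), iron uptake (11) and aquaporins (19) held 0 members. Phosphate starvation genes were listed as lower at 8 days in 5, 7, 6 and 7 cases in flight Sku6, flight Col-0, ground Sku6 and ground Col-0, and iron uptake genes in 4, 3, 4 and 5, with 0 higher on both lists. On the nitrate and ammonium list 2, 2, 4 and 4 genes were lower, and the nitrate reductase gene NIA1 was higher in both flight tables, with folds of 3.28 in Sku6 and 2.52 in Col-0. Aquaporins went both ways outside ground Col-0: 3, 3, 6 and 11 were lower and 1, 1, 4 and 0 higher, among them PIP2;5 with a fold of 8.04 in ground Sku6.

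Whether the members also differed between flight and ground was read from 4 other tables. These use the same 8-day and 4-day groups as the rule, so they are not independent of it. At 8 days in Col-0, 72 of the 187 members were lower in flight than on the ground (38.5%) and 4 were higher (2.14%). Of all loci tested in that table, 2.8% were lower and 1.26% higher. The share is not particular to the members: of the 161 other loci listed in all 4 age tables, a share of 32.9% was lower in flight, and of the 94 loci that were lower at 8 days everywhere 14.9% were. At 8 days in Sku6, 36 members (19.3%) were lower in flight and 4 higher, beside 1.43% and 1.08% of all loci tested. At 4 days, 27 members were lower and 3 higher in flight Col-0, beside 4.11% and 3.1% of all loci, and 16 were lower and 10 higher in flight Sku6, beside 2.28% and 2.18%. The members lower in flight at 4 days were 14.4% in Col-0, beside 33.5% of the 161 other loci, and 8.56% in Sku6, beside 13.7%. At 8 days in Sku6 the 19.3% of members stood beside 14.3% of the other loci. The counts at 4 days depend on the rule: of the 261 loci chosen without the ground Col-0 age table, a count of 73 was lower and 3 higher in Col-0, and of the 99 chosen with a fold of at least 2 there were 4 lower and 5 higher in Sku6. The difference between Col-0 and Sku6 in these counts was not tested.

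In all, 88 members were in no flight table, 49 in 1, 35 in 2, 7 in 3 and 8 in all 4. The 8 were BGLU7, BGLU6, TPPI, SP1L5, FAR5, ENODL2, AT2G43590 and AT5G37690, and each was lower in flight in every table. Other loci were not counted over several tables, so nothing particular to the members is read from these counts. SP1L5 (AT4G23496), a relative of the SPR1 gene altered in Sku6, was at 102 and 29.4 FPKM at 8 and 4 days in flight Sku6, 92.4 and 28.6 FPKM in flight Col-0, 175 and 85.4 FPKM in ground Sku6, and 203 and 78.2 FPKM in ground Col-0. Flight over ground, its ratio was 0.584 in Sku6 and 0.451 in Col-0 at 8 days, and 0.344 in Sku6 and 0.361 in Col-0 at 4 days. SP1L5 was in no genotype table. TPPI (AT5G10100), a trehalose-6-phosphate phosphatase, was at 8.62 and 4.58 FPKM at 8 and 4 days in flight Sku6, 12.9 and 4.61 FPKM in flight Col-0, 32.2 and 13.2 FPKM in ground Sku6, and 24.5 and 12.9 FPKM in ground Col-0. Both genotypes thus had about the same TPPI level or less in flight at 8 days than on the ground at 4 days. In the authors' deposited table for Sku6 at 8 days its q-value was 0.00373.

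BGLU7 stood in flight at 0.453 of its ground level in Sku6 and 0.679 in Col-0 at 8 days, and at 0.345 and 0.321 at 4 days. BGLU6, a second beta-glucosidase, stood at 0.538 and 0.722 at 8 days and at 0.446 and 0.339 at 4 days, in the same order of genotypes. For both enzymes the flight deficit was larger at 4 days. ENODL2, an early nodulin-like protein, stood at 0.521 and 0.659 at 8 days and at 0.585 and 0.463 at 4 days, and AT2G43590, a chitinase family gene, at 0.763 and 0.588 and at 0.652 and 0.459. AT5G37690, an SGNH hydrolase family gene, stood at 0.766 and 0.720 at 8 days and at 0.696 and 0.585 at 4 days.

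At 8 days the cambium members were mostly among those that were lower in flight in Col-0. Flight over ground was then 0.640 for WOX4, 0.629 for ANT, 0.663 for KNAT1, 0.534 for PTL, 0.535 for ASL9 and 0.580 for OBP1. So 6 of the 7 cambium members were lower in flight, and CLE44 was not listed. In that comparison 38.5% of all members were lower. So were 32.9% of the 161 other loci listed in all 4 age tables and 2.8% of all loci tested. In Sku6 at 8 days only KNAT1 (0.706) and PTL (0.651) were listed, both lower in flight, and none of the 7 was listed at 4 days in either genotype. The sieve element gene SEOR1 was lower in flight Col-0 at both ages, at 0.672 of ground at 8 days and 0.418 at 4 days. PP2-A1 went the other way in Sku6, with 1.32 at 8 days and 1.48 at 4 days. The list's members were known to move together with age when it was written, and their part in the Col-0 count was not tested.

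Few members were higher in flight in more than 1 table. Of the 50 members in at least 2 flight tables, 38 were lower in each, 3 were higher in each and 9 went both ways. The 3 were PP2-A1, AT1G77530 and AT4G23670. Other loci were not counted in this way. AT1G77530 was higher in flight at 8 days in Col-0 (ratio 1.52) and at 4 days in Sku6 (2.09), and AT4G23670 at 4 days in both (1.91 in Sku6 and 1.36 in Col-0). PCO1 was among those that went both ways: flight over ground was 1.47 in Sku6 and 0.626 in Col-0 at 8 days, and 2.46 in Sku6 at 4 days. PCO2 likewise stood at 1.90 in Sku6 and 0.576 in Col-0 at 8 days. AT3G29410, a terpenoid cyclase family gene, had the highest flight ratio in Col-0 at 8 days, 2.46, with 17.8 FPKM in flight and 7.17 FPKM on the ground.

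**Figure D4:**
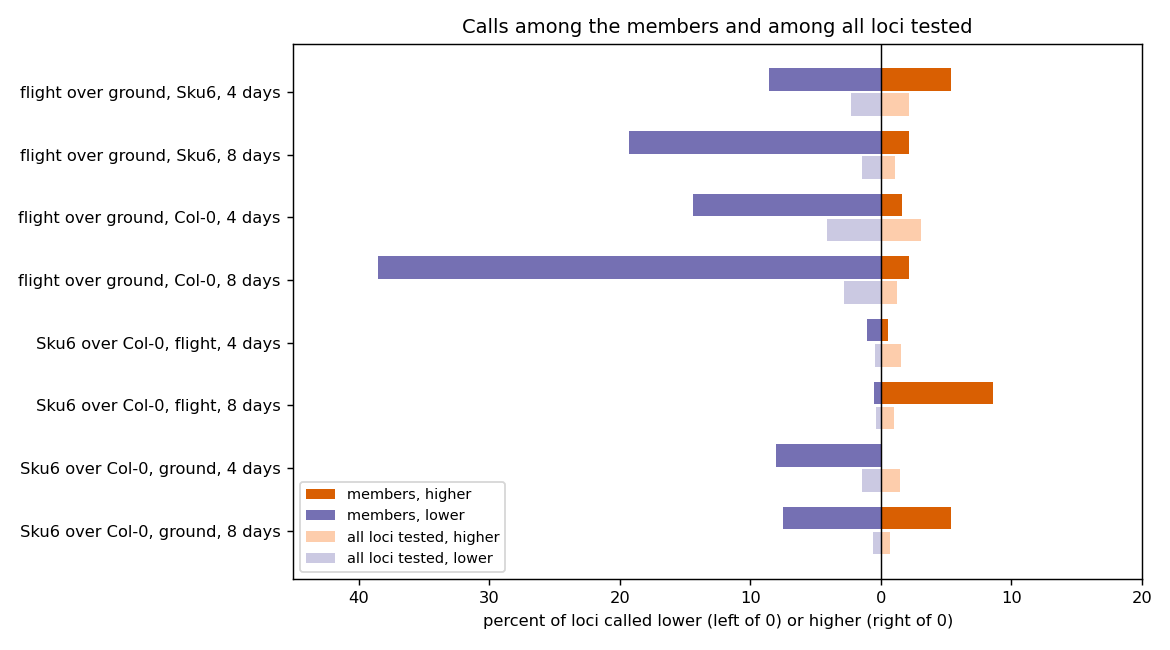
Percent of loci called lower (left of 0) and higher (right of 0) in the 4 flight and 4 genotype tables, with a dark bar for the 187 members and a pale bar for all loci tested. The longest bar is that of members lower in flight Col-0 at 8 days, 38.5%, beside 2.8% of all loci.

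AT1G12805 (TAIR10 chromosome 1, 4366597 to 4367119), annotated as a nucleotide binding protein, was at 34.6 and 6.56 FPKM at 8 and 4 days in flight Sku6, 13.0 and 5.49 FPKM in flight Col-0, 13.4 and 3.00 FPKM in ground Sku6, and 46.1 and 11.7 FPKM in ground Col-0. At 8 days it was high in flight Sku6 and ground Col-0 and low in the other 2 groups. Flight over ground was 2.58 in Sku6 and 0.279 in Col-0 at 8 days, and Sku6 over Col-0 was 2.71 in flight and 0.293 on the ground. In the authors' deposited table the q-value was 0.00373 for flight over ground in Sku6 and 0.00263 in Col-0 at 8 days. The difference between the genotypes was not tested, because no value per sample was in hand. Both PCO genes had the same order of groups at 8 days: flight Sku6 and ground Col-0 above flight Col-0 and ground Sku6.

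The genotype tables listed fewer members, and 140 members were in none. At 8 days in flight, 16 members were higher in Sku6 than in Col-0 and 1 was lower (8.56% and 0.535%), beside 1.03% and 0.371% of all loci tested. At 8 days on the ground, 10 were higher and 14 lower, beside 0.729% and 0.608% of all loci. At 4 days on the ground, 0 were higher and 15 lower, beside 1.45% and 1.48%, and at 4 days in flight 1 was higher and 2 were lower, beside 1.55% and 0.473%. The 8.56% of members higher in Sku6 at 8 days in flight stood beside 16.1% of the 161 other loci listed in all 4 age tables and 9.57% of the loci lower at 8 days everywhere. The 8.02% of members lower at 4 days on the ground stood beside 16.1% of the 161 other loci and 6.38% of the loci lower at 8 days everywhere. The larger direction at 8 days on the ground turned among the 261 loci chosen without the ground Col-0 age table (23 higher and 14 lower) and at a q of at most 0.01 (7 and 5). At 4 days those 261 loci gave 0 higher and 37 lower on the ground and 3 and 4 in flight, and the 227 chosen without the flight Sku6 age table gave 6 and 2 in flight. GASA6 was higher in Sku6 at 8 days in both places, by 1.93 times in flight and 1.67 times on the ground, and FAR5 by 1.38 times in flight. TH8, a thioredoxin, was higher in Sku6 in flight at 8 days by 1.76 times, and SPL2 was the 1 member that was lower there, at 0.708 of Col-0. DIR1 stood at 0.510 of Col-0 in ground Sku6 at 8 days and AT1G62500, a lipid-transfer family gene, at 0.382. At 4 days on the ground AT4G11320, a papain-type protease, stood in Sku6 at 0.434 of Col-0 and AT2G01610 at 0.336.

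The size of the age difference was compared between genotypes as a description, since the rule used these folds. In flight, 134 of 187 members had a larger fold in Sku6 than in Col-0, with a median ratio of the 2 folds of 1.12. On the ground, 124 of 187 did, with a median ratio of 1.15. The ratio was over 1.5 for 27 members in flight and 44 on the ground, and under 1 over 1.5 for 8 and 10. The largest of a member's 4 folds was in ground Sku6 for 81 members, in flight Sku6 for 49, in ground Col-0 for 41 and in flight Col-0 for 16. In flight over ground, 76 of 187 members had the larger fold in flight for Sku6 and 79 for Col-0. All loci listed as higher at 8 days, which include the members and differ from table to table, had median log2 changes in the authors' deposited tables of 0.94 in flight Sku6, 0.79 in flight Col-0, 0.95 in ground Sku6 and 0.75 in ground Col-0. The members' own medians in the authors' deposited tables were 1.46, 1.24, 1.58 and 1.30.

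**Figure D5:**
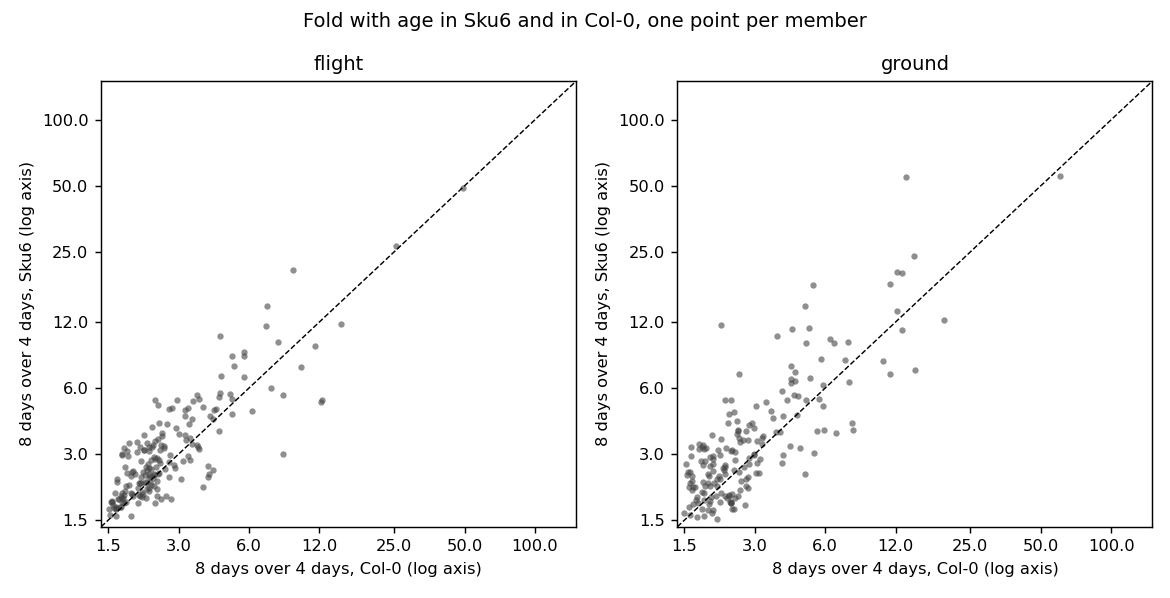
Fold of 8 days over 4 days in Sku6 (vertical, log axis) against Col-0 (horizontal, log axis) for the 187 members, in flight (left) and on the ground (right), with 1 point for each member. More points lie above the dashed line of equal folds, 134 of 187 in flight and 124 of 187 on the ground.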

How the data were processed

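Per the submitters' processing notes, the authors used Cufflinks and Cuffdiff, STAR 2.5.1b, Picard, Trimmomatic 0.36 and FastQC 0.11.2 with genome build TAIR10. Settings, annotation and strand handling are not stated in the labels. Per the labels' protocols, libraries were made with SMART-Seq v4 and Nextera reagents. The authors deposited 12 tables, with FPKM of both groups, log2 fold change, p-value and q-value for each locus, and only loci with q of at most 0.05 are in them. FPKM is scaled to transcript length and mapped fragments, so depth is unknown. The same group's FPKM in a pair of tables differed by at most 1.04 times. The test score that the authors deposited beside each p-value was not used.

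Each locus of the tables was matched to the RefSeq TAIR10.1 annotation by its gene identifier, and all 190 identifiers of the members matched. Of the 187 member loci, 171 hold 1 gene, 10 merge several genes and 6 carry no gene identifier. Start positions were raised by 1. A locus window can reach beyond its gene where the authors' assembly joined neighbours. Folds are ratios of deposited FPKM, always 8 over 4 days, flight over ground and Sku6 over Col-0, and log2 signs were set to match. A locus was called where the authors' q was at most 0.05. No test was added, because a group has 1 value. The number of loci tested, 19464 to 20035 per table, was worked back from p and q, and this and the rule were tested on simulated tables. Whether unstranded counting mixed reads of overlapping genes could not be seen.

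The members, the lists and the wording of families were chosen with earlier results of these data known. Named genes are the 12 leading and 6 most abundant members, the leading members of lists and families with at least 3 members, the 4 largest changes per direction in each flight and genotype table, 10 transcription factors by level, the edges of the threshold and of the spread of folds, and neighbouring members; others were chosen after their values were seen. Computations used Python 3.11.15 with pandas 2.3.3, numpy 2.4.6, scipy 1.17.1, numba 0.67.0 and matplotlib 3.10.9. Alternatives were another fold, q-value, FPKM minimum or pseudocount, merged loci left out, and each age table left out in turn.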

Additional observations from a re-analysis of the deposited data

How the results depend on the processing

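No paired analysis was possible because the deposited tables hold 1 value per group, and for the same reason no replicate could be left out. Of 155 alternative values, 118 stayed close to the reported ones, 37 moved, and 0 medians changed sign. Where the rule still used an age table, the median in it could not change sign, because each locus had to be higher at 8 days. The ratio of FPKM in place of the deposited log2 repeated the medians by construction, and these values are among the 118. For the calls, the larger direction was kept in 89 of 96 alternative values. It turned in 4, given here as higher and lower: flight over ground in Sku6 at 4 days with a fold of at least 2 (5 and 4, against 10 and 16 reported), and for Sku6 over Col-0 on the ground at 8 days with q of at most 0.01 (7 and 5, against 10 and 14) and without the ground Col-0 age table (23 and 14), and in flight at 4 days without the flight Sku6 age table (6 and 2, against 1 and 2). In 3 both directions were level. With a fold of at least 2, 99 loci were members. Calls over both directions, with the reported count in parentheses, then were 9 (26) for flight over ground in Sku6 at 4 days, 20 (40) in Sku6 at 8 days, 11 (30) in Col-0 at 4 days and 41 (76) in Col-0 at 8 days, and for Sku6 over Col-0 they were 1 (3) in flight at 4 days, 8 (17) in flight at 8 days and 6 (15) on the ground at 4 days. With no minimum fold they were 41 in Sku6 and 58 in Col-0 at 4 days for flight, and 8 in flight and 34 on the ground at 4 days for genotype. With q of at most 0.01 in every table they were 12 in Sku6 at 4 days, 20 in Sku6 at 8 days and 18 in Col-0 at 4 days for flight, and 6 in flight at 8 days and 12 of 24 on the ground at 8 days for genotype. A further minimum of 1.5 times for a call left 22 in Sku6 and 43 in Col-0 at 8 days for flight, and 5 in flight and 12 on the ground at 8 days for genotype. Without the ground Col-0 age table the counts were 76 in Col-0 at 4 days for flight, and 7 in flight and 37 on the ground at 4 days and 37 on the ground at 8 days for genotype. Without the flight Sku6 age table, a count of 8 was called in flight at 4 days for genotype. The median log2 change of 8 over 4 days became 1.84, 1.69, 2.06 and 1.90 in flight Sku6, flight Col-0, ground Sku6 and ground Col-0 with a fold of at least 2, 1.24, 1.10, 1.28 and 1.05 with no minimum fold, and 1.29, 1.16 and 1.35 in the first 3 without the ground Col-0 table. A lower fold admits loci with smaller changes by construction; other causes were not tested. The unknown depth limits the low members most, since 14 had a 4-day value under 1 FPKM.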

Other observations

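Member genes lay next to each other in 8 runs, with at most 2 genes between, which took in 17 genes of 16 loci. Such runs were not counted among other loci, so nothing particular to the members is read from their number. The runs were AT1G77520 with AT1G77530, SEOa with SEOR1, AT5G38020 with AT5G38030, AT5G53820 with AT5G53830, FACT with FLS2, NRT1.7 with TH8, AT3G50400 with OBP1, and AT1G19540 with AT1G19550 and DHAR1. The first 2 runs each pair genes of the same annotated family, O-methyltransferases and sieve element proteins. AT5G38020, a methyltransferase family gene, was at 53.5 and 24.6 FPKM at 8 and 4 days in flight Sku6, 48.1 and 21.1 FPKM in flight Col-0, 78.8 and 10.4 FPKM in ground Sku6, and 50.6 and 11.8 FPKM in ground Col-0. At 4 days its flight level was 2.36 times the ground level in Sku6 and 1.76 times in Col-0. The efflux family gene beside it, AT5G38030, was in no flight table.

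Loci without a gene identifier made up 6 of the members, and all 6 overlap annotated non-coding RNAs. One of them, on chromosome 1 from 16415357 to 16418074, also overlaps the protein-coding genes AT1G43600 and AT1G43605. The most abundant, on chromosome 3 from 872105 to 873708, was at 47.0 and 8.43 FPKM at 8 and 4 days in flight Sku6, 47.1 and 13.1 FPKM in flight Col-0, 58.1 and 10.5 FPKM in ground Sku6, and 50.5 and 11.0 FPKM in ground Col-0. A few member genes had a second locus of their own in some tables. The second locus at WOX4 was at 6.09 and 1.33 FPKM at 8 and 4 days in ground Sku6 and at 6.13 and 1.23 FPKM in ground Col-0, so it was higher at 8 days as well. The second locus at HB-12, a homeobox gene induced by water deficit, was at 14.9 and 2.57 FPKM at 8 and 4 days in flight Col-0, 20.8 and 3.41 FPKM in ground Sku6 and 21.3 and 3.65 FPKM in ground Col-0. Its folds, 5.81, 6.11 and 5.84, were larger than those of the HB-12 locus among the members, 1.52, 1.51 and 2.07 in the same groups.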
